A study of Mus musculus with 15 samples.

Results

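The genes described here are 6 genes of the contractile apparatus of smooth muscle and myofibroblasts (Acta2, Tagln, Cnn1, Myh11, Myl9 and Actg2) and 3 genes used to mark pericytes and other mural cells (Rgs5, Cspg4 and Mcam). They were taken by gene symbol from a table of 18929 mouse genes. 9 of 9 were found, and 9 of 9 were among the 15369 genes that passed the filter on low counts. The table covered 15 skin samples in 5 groups of 3, all from wild-type balb/c mice, which were male and 4 to 6 weeks old per the study's methods. The normal group is described as normal growth. The other 4 groups were full-thickness excisional wounds of the back, 10 mm or 15 mm wide, onto which Matrigel beads had been printed. In the acellular groups the beads held no cells. In the HDB groups, beads with a high density of human umbilical cord mesenchymal stem cells (MSCs) were printed among acellular beads, with 56 cell-laden beads and 84000 MSCs on the 10 mm wounds and 120 beads and 180000 MSCs on the 15 mm wounds. For sequencing, the study's methods give 4 weeks after implantation, while they end the wound-healing experiment, with removal of the tissue, at day 21, so the time of sampling is uncertain. The comparisons ask how far the repaired site resembled normal skin and whether the cell-laden beads altered it. The labels do not say whether the 3 samples of a group came from separate animals, so the p-values below measure the spread between these samples, which may be technical. The counts were assigned to mouse genes, and any share of reads from the transplanted human cells was not tested.

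Smooth muscle contracts when myosin, with its heavy chain Myh11 and regulatory light chain Myl9, pulls on actin filaments built from Acta2 and Actg2, and Tagln and Cnn1 bind those filaments. During wound closure, fibroblasts can take up the same machinery and become myofibroblasts, for which Acta2 (α-smooth muscle actin) is the usual marker, and they are normally lost as the scar matures. In skin the same genes are also expressed in the muscle coat of vessels and in the arrector pili muscles of the hair follicles, while pericytes wrap the capillaries. Many contractile genes are switched on by serum response factor (SRF) with myocardin-family cofactors, through a short DNA element called the CArG box.

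The 9 genes are protein-coding and lie on 6 chromosomes of GRCm38.p6. Among the contractile genes, the annotation places Acta2 (Entrez gene 11475) at chr19:34240336-34255585 on the minus strand, Tagln (Entrez gene 21345) at chr9:45929628-45936058 on the minus strand and Cnn1 (Entrez gene 12797) at chr9:22099221-22109221 on the plus strand. It places Myh11 (Entrez gene 17880) at chr16:14194527-14292188 on the minus strand, Myl9 (Entrez gene 98932) at chr2:156775408-156781657 on the plus strand and Actg2 (Entrez gene 11468) at chr6:83512909-83536251 on the minus strand. The mural genes are Rgs5 (Entrez gene 19737) at chr1:169655501-169695813 on the plus strand, Cspg4 (Entrez gene 121021) at chr9:56865104-56899870 on the plus strand and Mcam (Entrez gene 84004) at chr9:44134658-44142727 on the plus strand. Of all stretches of 50 bases in the longest transcript, 0.352% in Acta2 and 0.4% in Myh11 also occur in other actin or myosin genes, and 0 in the other 7, so that sharing of reads with a near-identical copy concerns little of these transcripts.

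The upstream sequences are shown for Acta2 and Myl9, the contractile genes that correlated most with the rest of their group over the samples, and for Rgs5, the gene with the largest change. RefSeq start sites for GRCm38.p6 were on hand for 6 of the 9 genes (Acta2, Cnn1, Myl9, Rgs5, Cspg4 and Mcam). The 250 bases before the start are printed 5′ to 3′ on the gene's own strand, with capitals marking each match to the CArG box, allowing at most 1 mismatch in its A/T core. Acta2 lies on the minus strand and its window is chr19:34255374-34255623, Myl9 lies on the plus strand with chr2:156775214-156775463, and Rgs5 lies on the plus strand with chr1:169655251-169655500. The RefSeq start used for Acta2, Cnn1 and Myl9 lies inside the gene span given above. Part of these windows, with both marked Acta2 matches, therefore falls within the annotated gene.
Acta2: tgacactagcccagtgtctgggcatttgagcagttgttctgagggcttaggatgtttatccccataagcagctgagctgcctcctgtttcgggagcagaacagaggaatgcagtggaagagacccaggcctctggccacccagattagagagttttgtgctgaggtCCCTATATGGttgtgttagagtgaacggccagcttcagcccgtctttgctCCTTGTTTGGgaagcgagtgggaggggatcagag
Myl9: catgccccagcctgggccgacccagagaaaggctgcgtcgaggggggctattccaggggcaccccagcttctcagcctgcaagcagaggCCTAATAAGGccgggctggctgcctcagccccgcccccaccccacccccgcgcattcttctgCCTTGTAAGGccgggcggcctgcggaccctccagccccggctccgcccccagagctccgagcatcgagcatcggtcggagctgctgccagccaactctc
Rgs5: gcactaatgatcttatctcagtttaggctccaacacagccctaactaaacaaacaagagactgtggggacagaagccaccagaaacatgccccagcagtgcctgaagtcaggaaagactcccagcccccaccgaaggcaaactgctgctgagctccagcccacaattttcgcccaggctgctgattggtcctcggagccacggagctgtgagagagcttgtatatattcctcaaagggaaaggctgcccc

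The Acta2 window held 2 matches with 1 core mismatch each, starting 84 and 34 bases before the RefSeq start used. The Myl9 window held 1 match without a mismatch, 161 bases before the start, and 1 with a mismatch at 99 bases. The windows of Cnn1, Rgs5, Cspg4 and Mcam held none, which says only that these letters are not in these 250 bases. Of 32851 promoter windows of the same length, 1.47% held a match without a mismatch and 8.59% held one with at most 1 core mismatch, on either strand.

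Values are given in CPM, the counts of a gene scaled to one common library total after adjusting the libraries by the trimmed mean of M-values (TMM). Total counts ran from 15840551 to 18404188 per sample, and the lowest member value was 11.2 CPM. Per kilobase of the longest annotated transcript, which allows levels of different genes to be compared, normal skin held 135 ± 21.7 CPM per kb of Myl9 (SD, n = 3), 105 ± 26.0 of Acta2, 96.0 ± 19.1 of Tagln and 89.1 ± 11.7 of Rgs5. Each of these 4 overlapped its neighbour in that order within 1 SD. Myh11 (34.7 ± 7.53 CPM per kb) and Mcam (29.6 ± 5.13) formed a middle pair that did not differ beyond their spread, and Actg2 (12.4 ± 2.69), Cnn1 (8.94 ± 2.88) and Cspg4 (6.32 ± 0.582) were the lowest and again overlapped their neighbours. With the median in place of the longest transcript, Myl9 again led, at 302 CPM per kb, and Mcam, at 93.4 CPM per kb, lay above Myh11, at 35.9 CPM per kb.

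In the skin of wounds treated with acellular beads, the pericyte gene Rgs5 was lower than in normal skin at both wound sizes, by 5.87-fold at 10 mm and 3.76-fold at 15 mm. At 10 mm, Tagln and Mcam were also lower, by 1.85-fold and 1.86-fold. The myofibroblast marker Acta2 passed the test in none of the 4 wound groups, and no member was called higher than in normal skin in any group. In the HDB groups no member was called against normal skin. Genes were called by edgeR's quasi-likelihood test at a Benjamini-Hochberg adjusted p under 0.05 over all 15369 genes tested.

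**Figure D1:**
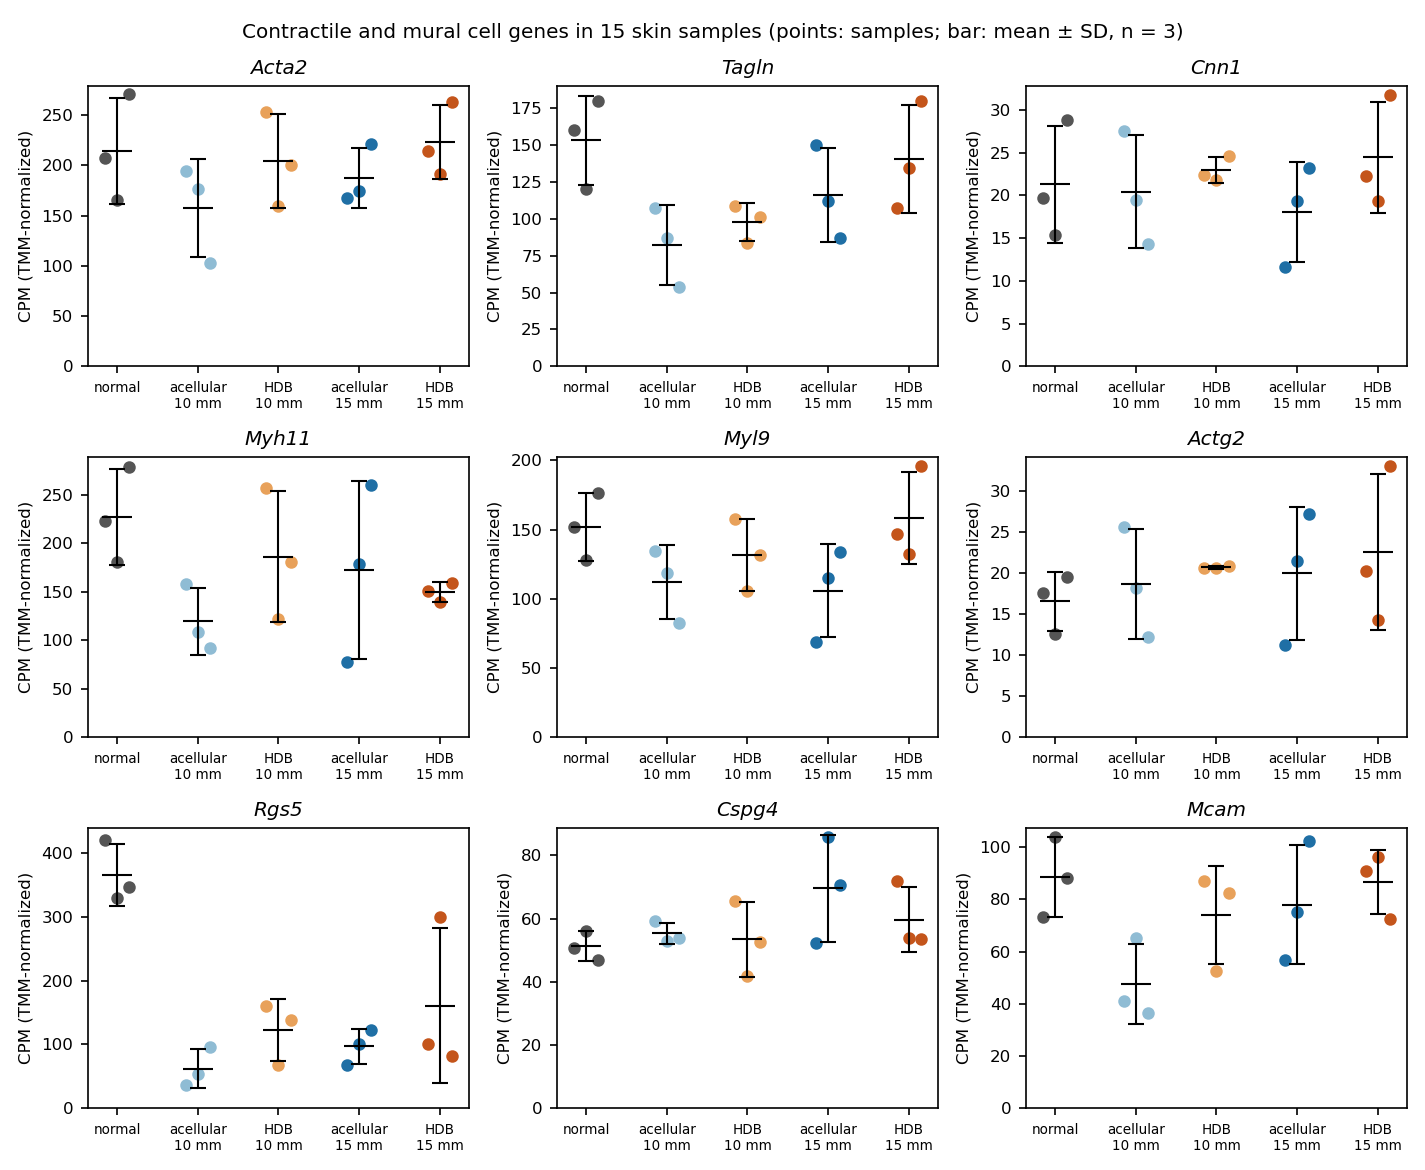
Level of each of the 9 genes in CPM (vertical axes, linear from 0) in the 15 samples, by group; points are samples and the black bars the mean ± SD of 3 samples. Rgs5 in normal skin (328 to 419 CPM) lies above every wound sample, while the groups overlap for most of the contractile genes.

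Rgs5 encodes a regulator of G-protein signalling that is abundant in pericytes and small-vessel smooth muscle. Its level was 419, 328 and 347 CPM in the 3 normal samples. It was 36.1, 53.9 and 96.5 CPM with acellular beads at 10 mm and 67.8, 100.1 and 123 CPM at 15 mm. Every acellular sample was below every normal one. The HDB samples held 160.2, 68.3 and 139 CPM at 10 mm and 101, 300.2 and 81.2 CPM at 15 mm. HDB replicate 2 of the 15 mm wounds stood apart from the other two of its group and reached close to the lowest normal sample. Rgs5 was the 1 member for which every wound sample lay below every normal sample, a pattern that 11.1% of all genes tested shared.

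Against normal skin, the log2 fold change of Rgs5 was -2.55 ± 0.520 (SE; edgeR adjusted p = 0.00988) with acellular beads at 10 mm and -1.91 ± 0.508 (adjusted p = 0.0166) at 15 mm. With HDB it was -1.58 ± 0.502 (adjusted p = 0.058) at 10 mm and -1.18 ± 0.497 (adjusted p = 0.152) at 15 mm. The HDB values therefore pointed the same way without passing the test. Without HDB 15 mm replicate 2 the value at 15 mm was -2.004 with an adjusted p of 0.0281, and DESeq2 called Rgs5 with HDB at 10 mm (adjusted p = 0.0113). The acellular call at 15 mm was lost when acellular 15 mm replicate 1 was left out (-1.71, adjusted p = 0.0545).

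Mcam encodes CD146, an adhesion molecule of pericytes, smooth muscle and endothelium. It was 73.1, 104 and 88.3 CPM in normal skin and 41.0, 65.3 and 36.6 CPM in acellular 10 mm wounds, groups that did not overlap. The difference was -0.89 ± 0.273 on the log2 scale (edgeR adjusted p = 0.0385). In the other wound groups it ran from 52.4 to 102 CPM and overlapped normal skin, with log2 fold changes of -0.26 for HDB at 10 mm, -0.18 for acellular beads at 15 mm and -0.03 for HDB at 15 mm.

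Cspg4, the proteoglycan NG2 of pericytes and smooth muscle, was called in none of the wound groups. Its level was 50.9, 56.2 and 46.8 CPM in normal skin and 59.3, 52.8 and 53.8 CPM in acellular 10 mm wounds. Its highest sample, 85.9 CPM, was in the acellular 15 mm group, whose log2 fold change was 0.44 ± 0.196 (edgeR adjusted p = 0.104). Without acellular 15 mm replicate 1 that difference was 0.61 with an adjusted p of 0.0349.

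Among the contractile genes, Tagln (transgelin, an actin-binding protein of smooth muscle) was the 1 gene of 6 that was called. It was 159.9, 119.9 and 179.6 CPM in normal skin against 107, 86.8 and 53.6 CPM in acellular 10 mm wounds, which lay below every normal sample. The log2 fold change was -0.89 ± 0.278 (edgeR adjusted p = 0.0412). The HDB 10 mm samples, at 109, 83.9 and 101 CPM, also lay below all normal samples, with -0.65 ± 0.277 (adjusted p = 0.133). At 15 mm the levels, 86.9 to 149.9 CPM with acellular beads and 107 to 179.6 CPM with HDB, overlapped those of normal skin. The calls of Tagln and Mcam at 10 mm were close to the threshold. Leaving out any 1 of the 6 samples compared took the adjusted p of Tagln to between 0.0536 and 0.128, and Mcam was called in 1 of those 6 fits, whereas Rgs5 was called in 6 of 6. Exons of Tagln overlap those of Pcsk7 and Gm48529 on the opposite strand, as those of Mcam overlap Gm10687, and since strand use in the counting is not stated, reads of the overlap could be shared. Tagln was the 1 member whose deposited values were not all whole numbers.

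Acta2 was 208, 165 and 271 CPM in normal skin. It was 195, 176.5 and 102 CPM in acellular and 253, 159 and 200.04 CPM in HDB wounds of 10 mm. At 15 mm it was 167, 174 and 221 CPM with acellular beads and 214, 192 and 263 CPM with HDB. The 5 groups overlapped, and the log2 fold changes against normal skin ran from -0.44 ± 0.259 (acellular 10 mm, edgeR adjusted p = 0.224) to 0.06 ± 0.259 (HDB 15 mm, adjusted p = 0.915). An excess of Acta2 over normal skin was therefore not detected in any wound group.

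Myh11, the smooth muscle myosin heavy chain, is a marker of mature smooth muscle. It was 223, 180.5 and 279 CPM in normal skin and 158, 109 and 91.7 CPM in acellular 10 mm wounds, again without overlap. The log2 fold change of -0.93 ± 0.380 did not pass the test (edgeR adjusted p = 0.0946). In HDB 15 mm wounds it was 151, 139 and 159 CPM, all below normal skin but not called (-0.60 ± 0.378, adjusted p = 0.324). The acellular 15 mm samples spread most widely, at 77.5, 179 and 260.4 CPM.

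Myl9 was 152, 128 and 177 CPM in normal skin and 68.9, 115 and 134 CPM in acellular 15 mm wounds, where its log2 fold change of -0.52 ± 0.262 was the lowest of the 4 groups (edgeR adjusted p = 0.144). In the other wound groups it ran from 82.4 to 196 CPM. Cnn1 (calponin, an actin-binding inhibitor of myosin) stayed between 11.7 and 31.8 CPM in the wounds, a range that took in the normal samples at 15.3 to 28.8 CPM. Actg2, the γ smooth muscle actin of the gut and other viscera, was 12.6 to 19.5 CPM in normal skin and 11.2 to 33.1 CPM in wounds. Its log2 fold change was above 0 in 4 of 4 groups, from 0.17 to 0.45, with no call (edgeR adjusted p between 0.451 and 0.748). In HDB 10 mm wounds the 3 samples of Actg2 lay within 20.6 to 20.9 CPM, above every normal sample.

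**Figure D2:**
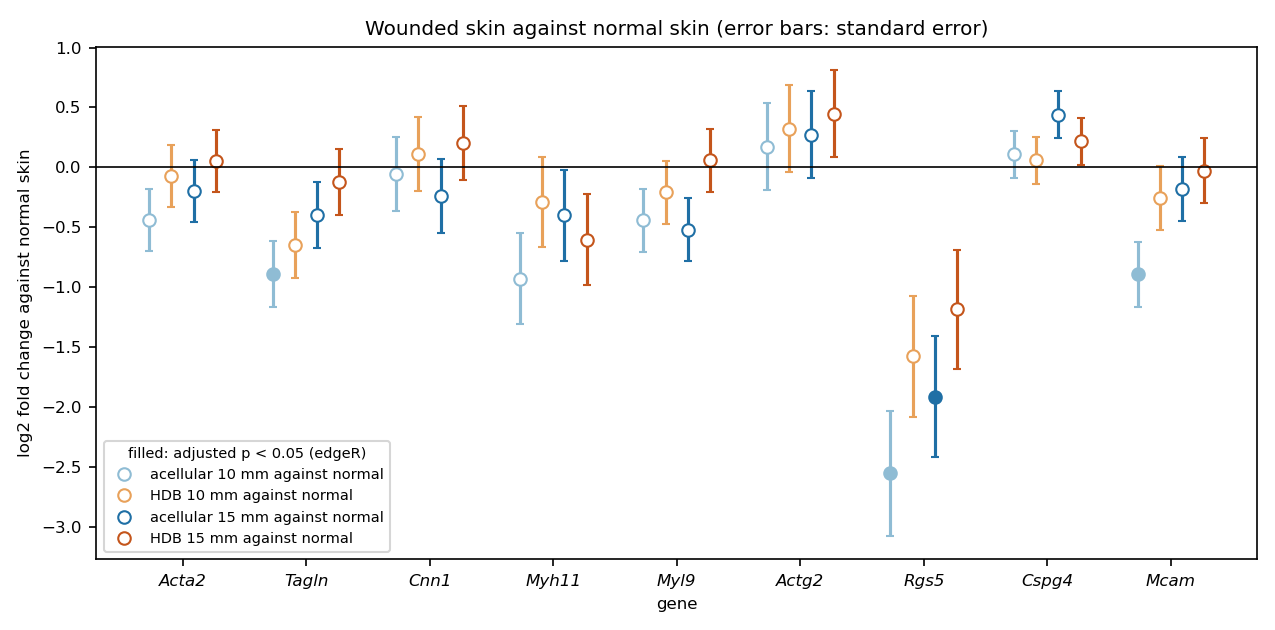
Log2 fold change against normal skin (vertical axis) with its standard error for the 9 genes in the 4 wound groups, 3 samples per group; filled circles passed an adjusted p under 0.05. Rgs5 is the lowest gene in every wound group, from -2.55 to -1.18, and the filled circles are Rgs5, Tagln and Mcam with acellular beads at 10 mm and Rgs5 at 15 mm.

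The number of calls has to be read against all genes. With acellular beads at 10 mm, 3 of 9 members were called lower and 0 higher, where 10.6% of all genes tested were called lower and 9.77% higher. At 15 mm it was 1 lower and 0 higher against 12.6% and 17.6%. With HDB no member was called, where 6.23% of genes were lower and 6.10% higher at 10 mm, and 2.51% were lower and 2.67% higher at 15 mm. At an unadjusted p under 0.05, 2 of 9 members were counted with HDB at 10 mm, beside 31.6% of all genes tested, and 1 of 9 at 15 mm, beside 26.9%. The median log2 fold change of the 9 members was -0.44 with acellular beads at 10 mm, beside 0.03 over all genes, -0.24 beside 0.06 at 15 mm, -0.21 beside 0.02 with HDB at 10 mm, and 0.06 beside 0.02 with HDB at 15 mm. These 4 comparisons share the normal samples and are not independent of each other.

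HDB was then compared directly with acellular beads of the same wound size, which asks whether the MSCs altered these genes. No member was called at 10 mm, where 0 of all genes tested were called (0%), nor at 15 mm, where 2.35% of genes were lower and 0.579% higher. Over both sizes together no member was called, with 0 of all genes (0%), and the difference of the HDB effect between the sizes was called for no member and 0 of all genes (0%). At an unadjusted p under 0.05, edgeR counted 1 member at 10 mm, 1 at 15 mm, 2 over both sizes and 0 for the difference between sizes, against 543, 3567, 2428 and 2063 genes in all. DESeq2 also called no member in these 4 comparisons, while it called 15, 1792, 223 and 608 genes in all.

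The largest difference over both sizes was that of Rgs5, 0.85 ± 0.350 higher on the log2 scale with HDB (1.81-fold, edgeR adjusted p = 0.284). An exact two-sided permutation test within sizes gave p = 0.095, where 0.005 is the smallest p it allows. The difference was 0.98 ± 0.497 at 10 mm and 0.73 ± 0.494 at 15 mm, and the latter rested on HDB 15 mm replicate 2. Without that sample it was -0.09. Myl9 was 0.41 ± 0.185 higher over both sizes (edgeR p = 0.0477, adjusted p = 0.312; exact permutation p = 0.075) and Mcam 0.39 ± 0.192 (adjusted p = 0.334). The fitted value was above 0 for 8 of 9 members over both sizes, with a median of 0.30 and Cspg4 (-0.14) as the exception, but 0 of the 9 passed the test. The median over all genes tested was -0.0081. Several lists of other cell types lay above 0 in the same comparison, with medians of 0.56 for endothelium (12 of 12 positive), 0.91 for adipocytes (8 of 8), 0.70 for macrophages (8 of 8) and 0.52 for skeletal muscle (12 of 12), while the medians of melanocyte and Schwann cell (-0.60) and hair shaft genes (-5.27) lay below 0. Their part in the members' values was not tested.

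The comparison at 15 mm touched on transcript length. The slope of log2 CPM against transcript length, relative to the mean of all samples, was -0.13, -0.06 and -0.16 per doubling of length in the HDB 15 mm samples and 0.06, 0.05 and 0.15 in the acellular 15 mm samples, so short transcripts were relatively higher with HDB. Myl9, with a longest transcript of 1128 bases, was 0.58 higher with HDB at 15 mm (edgeR adjusted p = 0.208), and 0.25 once this trend was removed. Rgs5, at 4096 bases, moved from 0.73 to 0.71. The part of RNA quality in these differences was not tested otherwise.

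The members were then compared for how they varied from sample to sample. Over the 15 samples, the Pearson correlation of log2 CPM with the mean of the other 5 was 0.90 for Acta2, 0.90 for Myl9, 0.82 for Cnn1, 0.71 for Myh11, 0.68 for Actg2 and 0.45 for Tagln. These are descriptions over samples that share library and tissue composition. With the group means taken out, Cnn1 and Actg2 correlated at 0.95 and Myl9 and Myh11 at 0.91. In the mural group, the correlation with the mean of the other 2 was 0.71 for Mcam, 0.33 for Rgs5 and 0.10 for Cspg4. Pairs within the contractile group ran from 0.15 (Tagln and Actg2) to 0.89 (Cnn1 and Actg2). Rgs5 correlated with the contractile genes at values from -0.29 (Actg2) to 0.55 (Myh11), and with Acta2 at 0.26. With the group means taken out, these values were -0.37 for Actg2, 0.21 for Myh11 and -0.22 for Acta2.

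The members were also compared as ratios within each sample, which do not depend on library scaling. In normal skin there were 176 ± 41.5 CPM of Rgs5 per 100 CPM of Acta2 (SD, n = 3), against 47.7 ± 40.7 and 51.2 ± 9.26 with acellular beads at 10 and 15 mm, and 58.5 ± 13.8 and 78.1 ± 68.4 with HDB. On the log2 scale, Rgs5 minus Acta2 was 0.79 ± 0.37 in normal skin, -1.41 ± 1.2 in acellular 10 mm, -0.98 ± 0.28 in acellular 15 mm and -0.80 ± 0.37 in HDB 10 mm wounds. In each of these 3 groups every sample was below every normal one, and the exact permutation p of 0.1 is the smallest that 3 against 3 samples allow. In HDB 15 mm wounds it was -0.71 ± 1.22 (exact permutation p = 0.2), with replicate 2 inside the normal range. Myh11 was 106 ± 3.09 CPM per 100 CPM of Acta2 in normal skin, 77.4 ± 14.3 and 89.0 ± 37.7 with acellular beads at 10 and 15 mm, and 89.4 ± 12.5 and 67.8 ± 6.54 with HDB, and the acellular 15 mm samples, up to 118, overlapped normal skin. Tagln was 71.9 ± 5.31 CPM per 100 CPM of Acta2 in normal skin and 52.2 ± 2.97 in acellular 10 mm and 48.7 ± 5.09 in HDB 10 mm wounds. At 15 mm it was 64.4 ± 25.2 with acellular beads and 62.8 ± 11.1 with HDB, and both groups overlapped normal skin.

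Endothelial genes were lower in the wounds as well. The mean log2 CPM of 12 endothelial genes (among them Pecam1, Cdh5 and Kdr) was 6.18 ± 0.06 in normal skin, 4.13 ± 0.55 and 4.69 ± 0.42 with acellular beads at 10 and 15 mm, and 4.75 ± 0.44 and 5.16 ± 0.59 with HDB (SD, n = 3). Against normal skin, 12, 11, 8 and 1 of the 12 were called lower in acellular 10 mm, acellular 15 mm, HDB 10 mm and HDB 15 mm wounds, beside 10.6%, 12.6%, 6.23% and 2.51% of all genes, and none was called higher. Pecam1, the adhesion molecule that marks endothelium, was 189 ± 8.38 CPM in normal skin and 47.1 ± 21.1 CPM in acellular 10 mm wounds. The HDB 15 mm sample with the high Rgs5, replicate 2, also had the highest endothelial mean of the wound samples, 5.78. Within acellular 10 mm wounds the order was different, since replicate 3 had the lowest endothelial mean of all samples (3.70) and the highest Rgs5 of its group (96.5 CPM), and replicate 2 had the highest endothelial mean of its group (4.75) with 53.9 CPM of Rgs5. The summed level of the 12 genes was 963 to 1052 CPM in normal skin and 169 to 724 CPM in the wound samples, and the part of vessel content in the change of Rgs5 was not tested. In bulk tissue, fewer cells of a type and less RNA per cell cannot be told apart.

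Rgs5 and Acta2 were then set against the endothelial mean of the same sample. The log2 level of Rgs5 above the endothelial mean was 2.33 ± 0.22 in normal skin and between 1.71 and 2.10 in the wound groups. In acellular 15 mm wounds it was 1.87 ± 0.14, where no sample reached the normal ones (exact permutation p = 0.1, the smallest possible), and in the other 3 groups the samples overlapped those of normal skin. Acta2 was 1.54 ± 0.31 above the endothelial mean in normal skin and 3.12, 2.85, 2.90 and 2.63 above it in acellular 10 mm, acellular 15 mm, HDB 10 mm and HDB 15 mm wounds. All samples but HDB 15 mm replicate 2 (1.80) were above every normal sample (exact permutation p = 0.1 for the first 3 groups and 0.2 for HDB 15 mm). The endothelial mean was lower in every wound group, so any gene that stayed level would separate in the same way. Acta2 itself was called in no wound group.

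**Figure D3:**
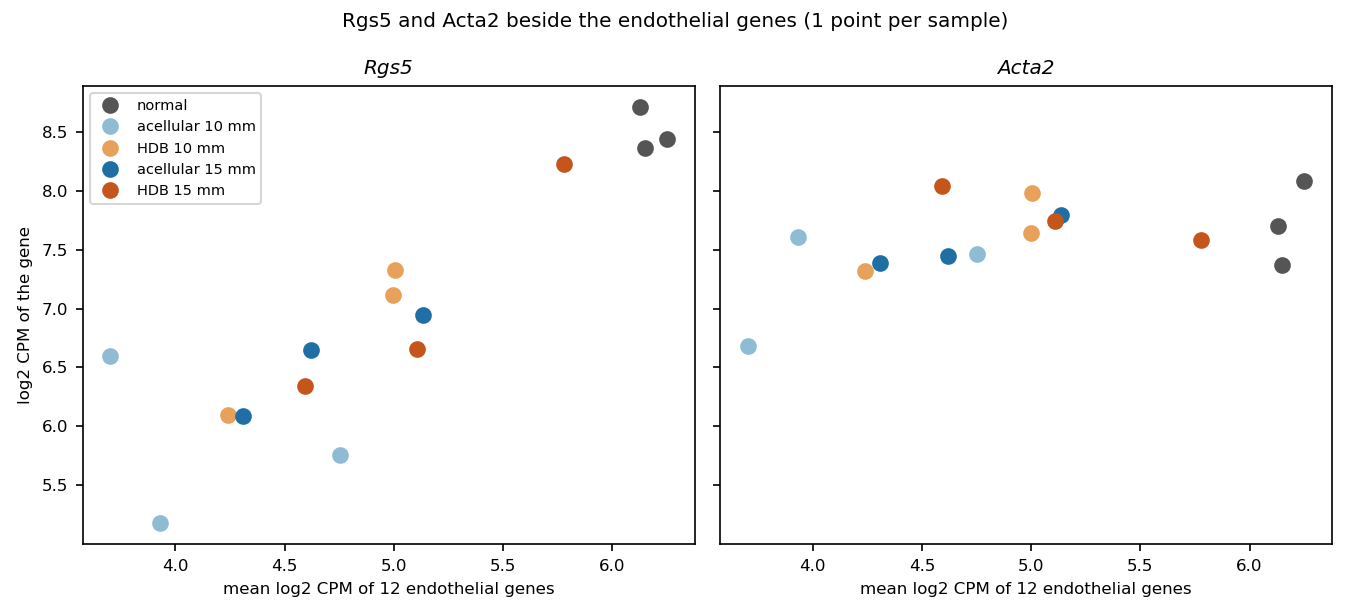
Log2 CPM of Rgs5 (left) and Acta2 (right) against the mean log2 CPM of 12 endothelial genes, 1 point per sample, coloured by group. The normal samples stood highest in Rgs5 and in the endothelial mean (near 6.18), acellular 10 mm replicate 3 had the lowest endothelial mean (3.70) with a Rgs5 level of 6.59, and Acta2 ran from 7.37 to 8.08 in normal and from 6.68 to 8.04 in wound samples.

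Pericyte partners of Rgs5 were examined from a list of 16 genes. With acellular beads at 10 mm, 7 of 16 were called lower (Angpt1, Aoc3, Ebf1, Gja4, Kcnj8, Tbx2 and Higd1b) and 0 higher, where 10.6% of all genes were lower. With 1 of the 6 samples left out, 2 to 6 partners were called, the lowest count without acellular 10 mm replicate 1. At 15 mm, 3 of 16 were lower (Gja4, Kcnj8 and Tbx2), beside 12.6% of all genes. With HDB, Gja4 and Kcnj8 were lower at 10 mm, beside 6.23%, and Notch3 alone at 15 mm, beside 2.51%. The last 3 counts rest on few genes and were not tested against those shares. Kcnj8, the pore of the ATP-sensitive potassium channel of pericytes, fell from 31.3 ± 4.50 CPM in normal skin to 8.05 ± 2.18 and 7.81 ± 4.44 CPM with acellular beads at 10 and 15 mm (log2 fold changes -1.96 and -1.999, edgeR adjusted p = 0.0098 and 0.00587). It was 9.92 ± 3.38 CPM with HDB at 10 mm (-1.66, adjusted p = 0.0234) and 13.7 ± 3.25 CPM at 15 mm, where it was not called. Aoc3, an amine oxidase of vascular smooth muscle and adipocytes, was 194 ± 106 CPM in normal skin and 27.1 ± 7.97 CPM in acellular 10 mm wounds (-2.84, adjusted p = 0.0142). In the same group 8 of 8 adipocyte genes and 12 of 12 endothelial genes were called lower, beside 10.6% of all genes. Their part in the change of Aoc3 and of the other partners was not tested. Pdgfrb, the receptor through which endothelium recruits pericytes, was called in no wound group, with 92.5 ± 19.4 CPM in normal skin and 53.2 ± 11.4 to 123 ± 19.1 CPM in the wounds.

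Between HDB and acellular beads, 2.35% of all genes were called lower and 0.579% higher at 15 mm, and 0% at 10 mm. Of the partner lists, Notch3, the Notch receptor of mural cells, was the 1 gene called. It was 62.3 ± 12.5 CPM with HDB and 106 ± 9.34 CPM with acellular beads at 15 mm (log2 -0.76 ± 0.145, edgeR adjusted p = 0.0252), while at 10 mm the values were 77.5 ± 6.62 and 72.7 ± 8.34 CPM. It was not called at 15 mm when only these groups were fitted or when the length trend was removed. With 1 sample left out, 0 to 4 pericyte partners and 0 to 2322 of all genes were called at 15 mm.

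In the list of 20 smooth muscle contractile partners, 2 were called higher and 2 lower with acellular beads at 10 mm, close to the 9.77% and 10.6% of all genes. At 15 mm 1 was higher and 6 were lower, beside 17.6% and 12.6% of all genes. At 10 mm Actn1 and Cnn2 were higher and Pgm5 and Lmod1 lower, but with any 1 of the 6 samples left out at most 1 partner was called. At 15 mm Actn1 was higher and Des, Tpm2, Pgm5, Synm, Ppp1r12b and Lmod1 were lower. With HDB none of the 20 was called. Over all genes, 6.23% were lower and 6.10% higher with HDB at 10 mm, and 2.51% and 2.67% at 15 mm. With 1 sample left out, 1 to 7 partners were called with acellular beads at 15 mm. The range was 0 to 6 with HDB at 10 mm and 0 to 1 at 15 mm. Lmod1 (leiomodin, an actin-nucleating protein of smooth muscle) was 73.1 ± 15.7 CPM in normal skin and 22.5 ± 2.07 and 22.9 ± 13.4 CPM with acellular beads at 10 and 15 mm (log2 -1.70 and -1.68, edgeR adjusted p = 0.0224 and 0.0164). Actn1, an actin crosslinker found in many cell types, was 67.9 ± 5.31 CPM in normal skin and 141 ± 44.9 and 183 ± 90.3 CPM in those groups (1.06 and 1.43, adjusted p = 0.0395 and 0.01). Des, Tpm2 and Synm are also genes of skeletal muscle, of which a sheet underlies mouse skin. Des was 2380 ± 521 CPM in normal skin and 321 ± 366 CPM in acellular 15 mm wounds (-2.89, adjusted p = 0.0326). The summed level of 12 skeletal muscle genes was 57361 to 69880 CPM in normal skin and 768 to 42630.4 CPM in the wound samples. Their median log2 fold change was -1.78, -2.74, -1.79 and -1.56 in acellular 10 mm, acellular 15 mm, HDB 10 mm and HDB 15 mm wounds. Of the 12, 1 was called lower (Myh1, acellular 15 mm), beside 12.6% of all genes. None was called in the other groups, beside 10.6%, 6.23% and 2.51% of all genes lower. The part of skeletal muscle in these partner calls was not tested.

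Of the SRF and myocardin regulators, 6 of 7 were tested. With acellular beads 1 was called higher and 1 lower at 10 mm, beside 9.77% and 10.6% of all genes, and 3 higher at 15 mm, beside 17.6%. With HDB none was called at 10 mm, and 1 was higher and 1 lower at 15 mm, beside 2.67% and 2.51%. Srf itself stayed between group means of 61.3 and 79.1 CPM and Myocd between 4.29 and 5.33 CPM, and neither was called. Tead3, a transcription factor of the Hippo pathway, was higher with acellular beads at both sizes (0.73 and 0.77 on the log2 scale, edgeR adjusted p = 0.0215 and 0.0126). Fhl2, an SRF-interacting LIM protein, rose from 4.67 ± 1.03 CPM in normal skin to 14.8 ± 8.11 and 13.95 ± 3.78 CPM with acellular beads and HDB at 15 mm (1.66 and 1.58, adjusted p = 0.0102 and 0.0383). Mrtfa was higher with acellular beads at 15 mm (0.43, adjusted p = 0.024), and Mrtfb lower with acellular beads at 10 mm (-0.33, adjusted p = 0.0355) and HDB at 15 mm (-0.40, adjusted p = 0.0396).

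Of 14 genes of activated fibroblasts and matrix, Lrrc15, Tnc and Cdh11 were called higher than in normal skin in all 4 wound groups. In all, 3, 5, 4 and 4 of the 14 were higher in acellular 10 mm, acellular 15 mm, HDB 10 mm and HDB 15 mm wounds, beside 9.77%, 17.6%, 6.10% and 2.67% of all genes. Lrrc15, a surface protein of TGF-β-activated fibroblasts, was 1.77 ± 0.271 CPM in normal skin and 57.6 ± 9.82, 163 ± 135, 99.2 ± 29.6 and 113 ± 49.7 CPM in acellular 10 mm, acellular 15 mm, HDB 10 mm and HDB 15 mm wounds. Its log2 fold changes were 5.02, 6.52, 5.80 and 5.996 (edgeR adjusted p between 0.000968 and 0.00189). Tnc, the matrix glycoprotein tenascin-C of healing tissue, rose from 10.5 ± 2.52 CPM to between 60.4 ± 17.1 and 96.1 ± 29.0 CPM (2.53 to 3.20 on the log2 scale). Cdh11, a fibroblast cadherin, rose from 29.7 ± 1.88 CPM to between 48.5 ± 4.41 and 76.4 ± 16.5 CPM (0.71 to 1.36). Postn was called higher in 3 of the 4 groups, other than acellular 10 mm, and Tgfbr1 in acellular 15 mm wounds. Fn1 and Col1a1 were lower with acellular beads at 10 mm, Fn1 at 96.6 ± 56.4 against 393 ± 192 CPM (-2.02, adjusted p = 0.0263). Ccn2, a target of TGF-β and YAP signalling, was lower with acellular beads at 15 mm (50.4 ± 22.4 against 133 ± 69.2 CPM, -1.40, adjusted p = 0.0272). None of the 14 was called between HDB and acellular beads, beside 0% of all genes at 10 mm and 2.35% lower and 0.579% higher at 15 mm.

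**Figure D4:**
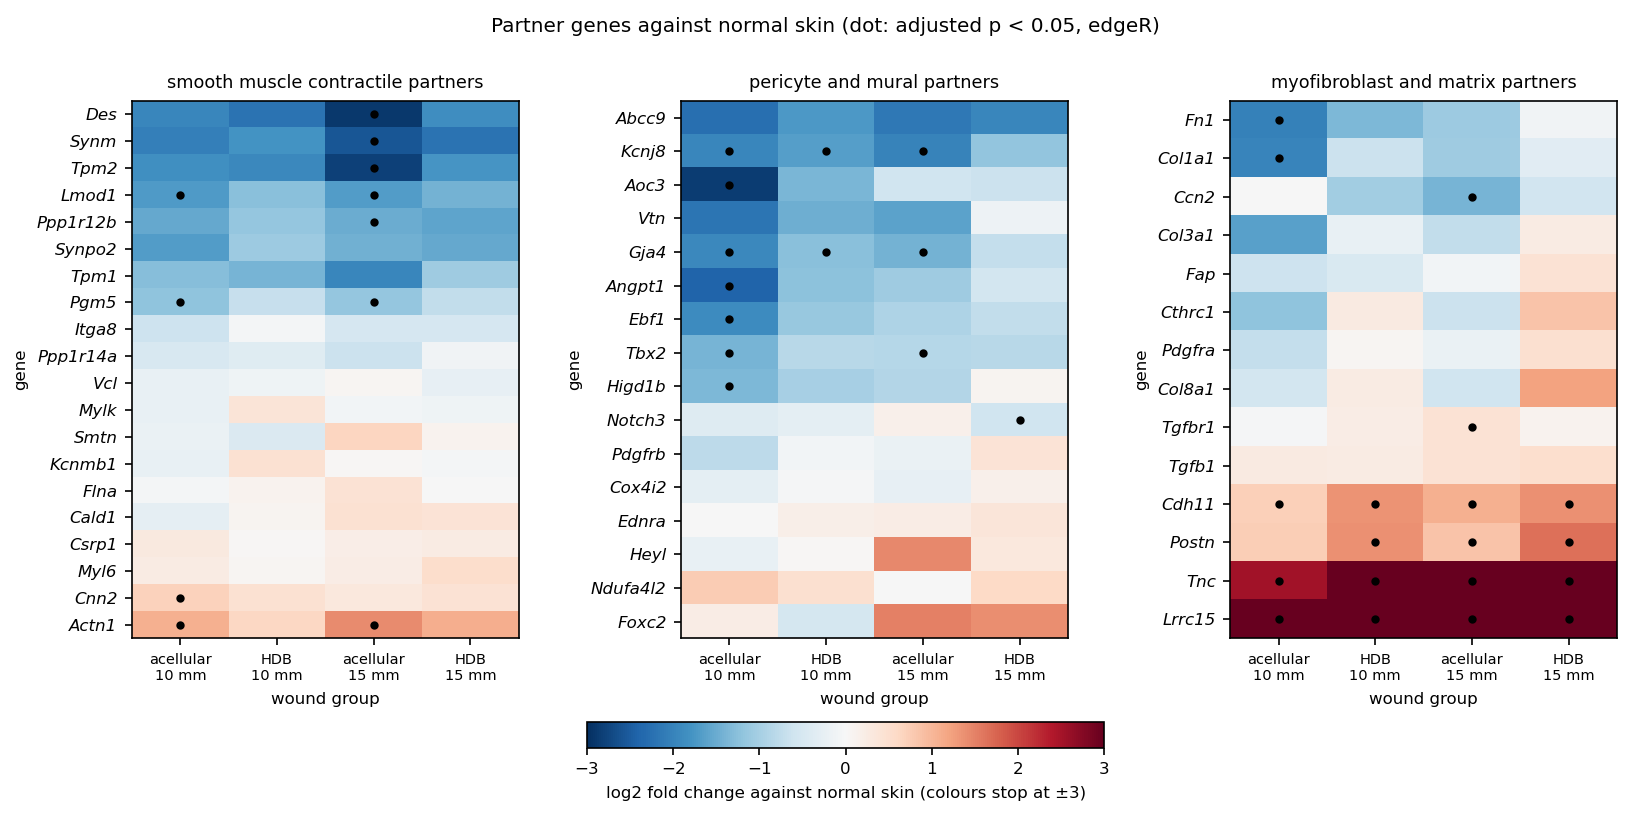
Log2 fold change against normal skin (colour, blue lower and red higher, stopping at ±3) for the 20 smooth muscle, 16 pericyte and 14 myofibroblast and matrix partner genes in the 4 wound groups; a dot marks an adjusted p under 0.05. Cdh11, Tnc and Lrrc15 are marked in all 4 groups, and 7 pericyte partners are marked in acellular 10 mm wounds.

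Other cell types that could carry these genes differed between the groups too. Of 10 melanocyte and Schwann cell genes, a lineage that also expresses Mcam, Dct, Pmel, Tyr and Tyrp1 were called higher and Mbp lower in acellular 15 mm wounds, beside 17.6% higher and 12.6% lower over all genes, and none in the other groups. The summed level of the 10 genes in acellular 15 mm wounds was 2482 CPM in replicate 1 and 470.2 and 555 CPM in replicates 2 and 3, below the 694 to 898 CPM of normal skin, so that the high mean rested on 1 sample. Macrophage genes were lower in acellular 10 mm (6 of 8), acellular 15 mm (5 of 8) and HDB 10 mm wounds (3 of 8), beside 10.6%, 12.6% and 6.23% of all genes. Hair shaft genes were higher in acellular 15 mm wounds (8 of 8) and for Krt35 in acellular 10 mm wounds (1 of 8), beside 17.6% and 9.77% of all genes, and their summed level ran from 0.536 to 0.703 CPM in normal skin and up to 9465 CPM in acellular 15 mm replicate 1. Epidermal genes, which identify the tissue as skin, were present in every sample, with Krt5 between 2225 and 7963 CPM. Of 8 epidermal genes, Krt5 and Krt14 were higher in acellular 10 mm, Krt14 in HDB 10 mm, and Krt10 and Lor lower in acellular 15 mm wounds. Over all genes the shares were 9.77% and 6.10% higher and 12.6% lower in these 3 comparisons. Of 6 cardiac muscle genes 3 passed the filter, none was called, and the highest, Actc1, ran from 0.377 to 35.9 CPM. The part of these cell types in the members' values was not tested.

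Over the 15 samples, the genes whose log2 CPM followed the mean of the contractile members most closely were Fam219b (Pearson r = 0.87), Gm13889 (0.83), Nacad (0.82), Mypop (0.81) and Zfp354a (0.81). Those closest to the mean of the mural members were Ankef1 (r = 0.96), Col6a5 (0.94), H6pd (0.93), Lrp3 (0.93) and Cp (0.93). These are descriptions over samples that share library and tissue, picked as the highest of all genes tested.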

How the data were processed

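Total RNA of skin was enriched for mRNA with oligo(dT) beads and sequenced at BGI. The authors deposited expected counts per gene for 15 samples. Their processing notes name HISAT2 2.0.4, Bowtie2 2.2.5, RSEM 1.2.12 and GRCm38.p6, with no order given. The study's methods name DESeq2, and whether counting used strand is not given in the sources used here. All sample columns were used. The expected counts were rounded, scaled by TMM and filtered with filterByExpr, and 15369 genes were fitted with the quasi-likelihood test of edgeR 4.0.16 in R 4.3.3, with 5 group means and 8 comparisons. Log2 CPM carried a prior count of 2. Single ratios were compared with exact two-sided permutation tests on log2 values (20 arrangements between 2 groups, smallest p 0.1, and 400 over both sizes, smallest p 0.005). The fits were tested on simulated data. DESeq2 1.42.0, its size factors in edgeR, other filters, only the groups compared, a replicate block, a minimum fold and leaving out each sample were tried, and removal of the transcript length trend was added after seeing the data. The text names all 9 members, and from each partner list the called genes with the largest rise and the largest fall without overlap in each wound group. Further partner genes were named after their values were seen, to give the whole count or a well-known member. The members and lists were chosen with earlier results of these data known. Samples with the same replicate number were checked for deviating together. Each of the 3 correlations exceeded 0.1 between acellular and HDB samples of 15 mm (0.40, 0.17 and 0.18) and between no other groups, and the labels do not say what the number marks. Promoter windows are from RefSeq for GRCm38.p6, and lengths and coordinates from the annotation of the same build. Lengths were found for 15085 genes tested. No 2 samples of a group agreed within sampling noise.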

Additional observations from a re-analysis of the deposited data

How the results depend on the processing

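The call of Rgs5 in acellular 10 mm wounds held under every alternative tried (highest adjusted p 0.0476), and no alternative called a member between HDB and acellular beads. Against normal skin, the count of members called in acellular 10 mm wounds was 1 with the replicate block (Tagln 0.0556, Mcam 0.0566, adjusted p), 1 with a log2 fold change of at least 1 and 1 to 2 with a sample left out, in place of 3. It was 4 with only the groups compared, where Myh11 was called as well (adjusted p = 0.0215). In HDB 10 mm wounds it was 1 with DESeq2 and 2 with only the groups compared, in place of 0. In HDB 15 mm wounds it was 1 with only the groups compared (Myh11) and 0 to 1 with a sample left out. The replicate block changed no member call in the other comparisons. With it, Cnn1 in acellular 10 mm wounds was 0.00089. At 15 mm, where the replicate numbers correlated, 179 genes were called between HDB and acellular beads with the block and 450 without it. No member was called with or without it.

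Removing the length trend turned small log2 differences at 15 mm, none of them called: HDB against normal, Acta2 to -0.036 and Myl9 to -0.16; HDB against acellular, Myh11 to 0.026, Actg2 to -0.11 and Cspg4 to 0.056. Leaving out 1 sample turned the sign of other uncalled differences. Against normal skin these ran, in acellular 10 mm wounds, from -0.33 to 0.21 for Cnn1 and -0.12 to 0.40 for Actg2. In acellular 15 mm wounds they ran from -0.35 to 0.0085 for Acta2, -0.46 to 0.045 for Cnn1, -0.018 to 0.56 for Actg2 and -0.42 to 0.0044 for Mcam. In HDB 10 mm wounds they ran from -0.24 to 0.13 for Acta2, -0.0796 to 0.39 for Cnn1 and -0.10 to 0.22 for Cspg4. In HDB 15 mm wounds they ran from -0.093 to 0.27 for Acta2, -0.34 to 0.038 for Tagln, -0.034 to 0.49 for Cnn1, -0.12 to 0.19 for Myl9 and -0.14 to 0.10 for Mcam. Between HDB and acellular beads at 10 mm they ran from -0.034 to 0.44 for Cnn1, -0.0804 to 0.44 for Actg2 and -0.20 to 0.12 for Cspg4. At 15 mm they ran from -0.55 to 0.22 for Myh11, -0.20 to 0.47 for Actg2, -0.091 to 1.05 for Rgs5 and -0.033 to 0.39 for Mcam, and over both sizes from -0.028 to 0.31 for Actg2. The cause was not tested.

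Counts of partner genes moved more. Against normal skin in acellular 10 mm wounds, 0 to 10 smooth muscle partners (4 as reported), 2 to 12 pericyte partners (7), 0 to 3 SRF regulators (2) and 2 to 7 matrix genes (5) were called. In acellular 15 mm wounds it was 0 to 9 (7), 0 to 5 (3), 0 to 3 (3) and 3 to 7 (6), the 0 counts coming with only the groups compared. In HDB 10 mm wounds it was 0 to 6 (0), 0 to 4 (2), 0 to 2 (0) and 3 to 4 (4), and in HDB 15 mm wounds 0 to 11 (0), 0 to 4 (1), 0 to 2 (2) and 3 to 5 (4). Over all genes, counts ran from 800 to 6196 (3125), 972 to 5805 (4642), 78 to 3321 (1895) and 34 to 3401 (796) in these groups. Between HDB and acellular beads they ran from 0 to 15 (0) at 10 mm, 0 to 2322 (450) at 15 mm, 0 to 229 (0) over both sizes and 0 to 608 (0) for their difference, and 0 to 4 pericyte partners (1) and 0 to 6 matrix genes (0) were called at 15 mm.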
